A study of Mus musculus with 12 samples.

Results

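The set comprised 10 genes of 38926 gene symbols counted in mouse liver, chosen by name with earlier results of these data known. They were the cytosolic HSP90 genes Hsp90aa1 and Hsp90ab1, their cochaperone gene Stip1, the HSP110 gene Hsph1, the HSP70 genes Hspa8, Hspa1a and Hspa1b, the J-domain gene Dnajb1, and the cold-inducible RNA-binding protein genes Cirbp and Rbm3. Poly(A) RNA was sequenced from 12 livers, 3 from wild-type (WT) mice and 3 from Rev-erbα-/- mice at each of ZT8 (zeitgeber time, in the light phase) and ZT20 (in the dark phase). Every animal was a 12-week-old mouse of mixed 129Ola/C57BL6 background, kept under light and dark cycles without treatment, and the study's methods state that males were used. The knockouts came from heterozygous breeding pairs and are a whole-body model, not one of liver alone. The comparisons asked whether these transcripts differed between the genotypes at each time, between the times in each genotype, and whether the genotype effect depended on time. Of the 10 genes, 9 had enough counts to be tested among 14488 genes, and Hspa1a did not.

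HSP90 is an abundant chaperone that holds client proteins, among them the glucocorticoid receptor (GR), in a form that can bind ligand. Clients reach it from HSP70, which works with J-domain proteins that deliver substrates and with HSP110, which exchanges its nucleotide. The protein HOP, encoded by Stip1, bridges HSP70 and HSP90. When unfolded proteins accumulate, heat shock factor 1 binds heat shock elements in the promoters of these genes and raises their transcription. CIRBP and RBM3 are small RNA-binding proteins whose transcripts accumulate when cells are mildly cooled. Body temperature follows a daily rhythm in mice, and both families are known as transcripts that can follow it.

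Between 17641809 and 26060192 reads per library were counted on genes, so that 3 counts, the limit that a count of 0 allows, corresponded to 0.117 to 0.167 CPM (counts per 1000000 counts of a library, scaled by TMM). The 10 genes together held between 0.10% and 0.164% of these reads. Reads on Nr1d1, the gene for REV-ERBα, did not fall to 0 in the knockouts. Its level at ZT8 was 100.1 ± 26.9 CPM in WT and 71.8 ± 8.78 CPM in Rev-erbα-/- livers (SD, n = 3). At ZT20 it was 2.09 ± 0.216 and 2.87 ± 0.743 CPM, so that counts on this gene did not tell the genotypes apart. Which part of the gene was deleted cannot be read from counts per gene. By quantitative PCR the study reports no Rev-erbα mRNA in knockout livers, and by immunohistochemistry no REV-ERBα protein. Counts over the whole gene are a different measure. The hepatocyte markers Alb, Apoa1, Ttr, Cps1, Cyp3a11 and Serpina1c summed to at least 50134 CPM in every library, against at most 420 CPM for the 5 Kupffer cell markers and 264 CPM for the 5 endothelial markers. Hepatocyte marker sums moved with time: they ran from 50134 to 73720 CPM in WT and from 60724 to 87107 CPM in Rev-erbα-/- livers at ZT8, and from 96455 to 106676 CPM and from 84368 to 93944 CPM at ZT20. In WT livers 4 of these 6 markers were higher at ZT20 in edgeR's test, where 13.8% of all genes were higher and 13.9% lower. Of 5 Kupffer cell markers 2 were lower (Cd5l, -0.85, adjusted p = 0.00762, and Marco, -2.65, adjusted p = 0.0244, on the log2 scale). Of 5 stellate cell markers 1 was lower (Reln, -0.30, adjusted p = 0.0468). Of 5 bile duct markers 2 were higher (Krt19, 1.35, adjusted p = 0.0172, and Sox9, 1.08, adjusted p = 6.58e-04). In Rev-erbα-/- livers Serpina1c (0.72, adjusted p = 0.00843), the stellate cell marker Des (0.79, adjusted p = 0.0139) and Krt19 (1.20, adjusted p = 0.0398) were higher at ZT20. Over all genes 8.79% were higher and 8.67% lower in that comparison. Kupffer marker sums ran from 262 to 420 CPM in WT livers at ZT8 and from 230 to 283 CPM at ZT20, and in Rev-erbα-/- livers from 231.05 to 291 CPM and from 272 to 326 CPM. Sox9 was also higher in the knockouts at ZT8 (1.20, adjusted p = 0.00126), and the genotype effects of Marco (-4.43, adjusted p = 0.0293) and Reln (-0.54, adjusted p = 0.0440) differed between the times. No marker was at 0 in every library. The number of alignments to more than 1 place per counted read also moved with time. It was 1.76, 2.89 and 3.28 in WT and 2.32, 2.29 and 2.72 in Rev-erbα-/- livers at ZT8, and at ZT20 it was between 1.56 and 1.67 and between 1.24 and 1.56. The part of these measures in the results was not tested, and a change in the number of cells of a type cannot be told apart from a change in RNA per cell.

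Only reads with a single place in the genome were counted, which matters for genes with near-identical copies. Hsp90aa1 (chr12:110690605-110702728 on mm10, minus strand) has a transcribed processed pseudogene, Gm12346, in the annotation at chr11:77293444-77295898. The alignment held 2254 bases, of which 2243 were identical and 11 differed. A second copy, Gm5844 at chr3:18008806-18010996, had 2170 identical bases of 2191. By sequence, a 75-base read within these alignments, the length sequenced here, could be told apart only where it covered a differing base. The comparison was of spliced transcripts, whereas reads were mapped to the genome. How reads across exon junctions of Hsp90aa1 were placed was not tested. The windows below show a differing base at the centre of a 75-base read, in capitals. Positions are counted from 1 at the first coding base of Hsp90aa1. The base C855T distinguishes Gm12346 within coding bases 818 to 892.
Hsp90aa1, bases 818 to 892: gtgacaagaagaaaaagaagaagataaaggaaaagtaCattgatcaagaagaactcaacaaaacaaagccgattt
Gm12346: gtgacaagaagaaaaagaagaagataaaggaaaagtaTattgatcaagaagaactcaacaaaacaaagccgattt
The base A1131G distinguishes Gm5844 within coding bases 1094 to 1168.
Hsp90aa1, bases 1094 to 1168: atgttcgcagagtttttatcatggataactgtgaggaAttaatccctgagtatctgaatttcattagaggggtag
Gm5844: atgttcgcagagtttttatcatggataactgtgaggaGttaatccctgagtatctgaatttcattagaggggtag

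Of the 75-base windows of each annotated transcript, 53.1% were found unchanged in another gene for Hsp90aa1, 68.6% for Hspa8, 61.7% for Hspa1a and 55.8% for Hspa1b. The share was 11.6% for Rbm3, 4.42% for Stip1 and 0.736% for Hsp90ab1, and no window of Hsph1, Dnajb1 or Cirbp was shared. Values of Hsp90aa1, Hspa8, Hspa1a and Hspa1b therefore came from less than the whole transcript and are uncertain as levels. In the annotation Hspa1a also shared 564 exon bases with Gm20481 on the opposite strand, and Rbm3 shared 94 with Rbm3os. Counting ignored strand, so that such reads cannot be told apart.

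**Figure D1:**
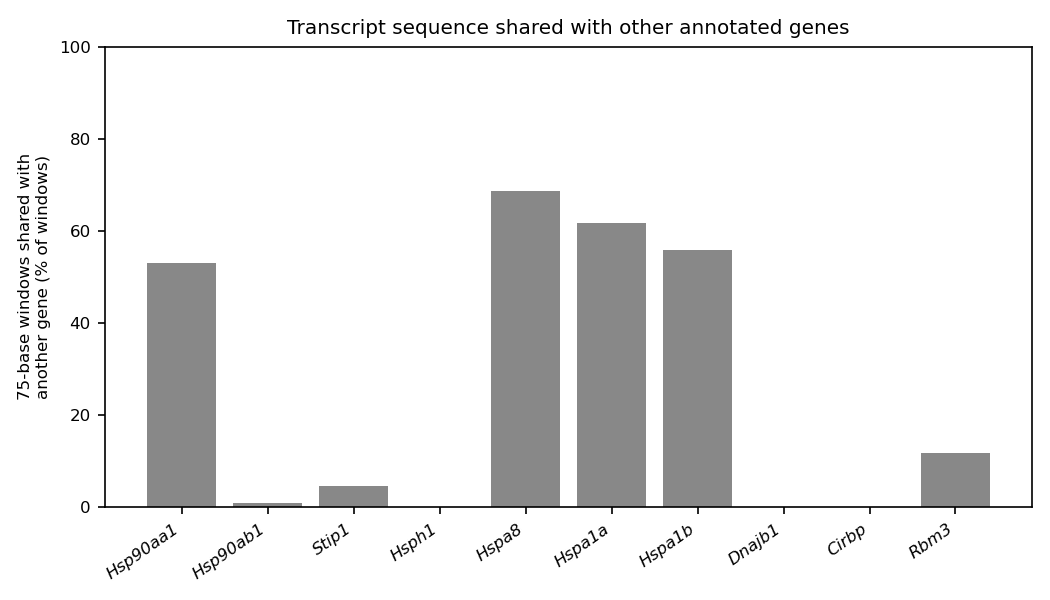
Share of 75-base windows of each gene's transcript that occur unchanged in another annotated gene, in percent of the gene's windows. Hspa8, Hspa1a, Hspa1b and Hsp90aa1 lie between 53.1% and 68.6%, and the other 6 genes at or below 11.6%.

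The stress-inducible pair Hspa1a (chr17:34969190-34972156) and Hspa1b (chr17:34956436-34959238) lies on the minus strand of chromosome 17, and each gene is a single exon. Their promoters are shown because the counts of the pair differed widely while the 250 bases before the start were 247 of 250 identical. The capitals mark the 3 differing bases (C44T, T47C and T249G, from Hspa1a to Hspa1b and counted from 1 at the 5′ end). Promoter sequences are from RefSeq on GRCm38.p6, the same build as mm10.
Hspa1a (chr17:34972157-34972406, minus strand): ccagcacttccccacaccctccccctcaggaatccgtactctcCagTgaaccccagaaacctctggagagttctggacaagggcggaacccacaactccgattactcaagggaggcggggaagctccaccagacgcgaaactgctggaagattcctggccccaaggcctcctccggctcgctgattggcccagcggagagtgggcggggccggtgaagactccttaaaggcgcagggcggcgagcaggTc
Hspa1b (chr17:34959239-34959488, minus strand): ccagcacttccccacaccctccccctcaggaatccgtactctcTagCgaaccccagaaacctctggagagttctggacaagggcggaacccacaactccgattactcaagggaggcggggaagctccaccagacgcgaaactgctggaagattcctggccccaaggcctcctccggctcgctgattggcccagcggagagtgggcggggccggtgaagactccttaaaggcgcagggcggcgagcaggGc

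Promoters of 6 of the 10 genes (Hsph1, Hspa1a, Hspa1b, Dnajb1, Stip1 and Cirbp) were in the RefSeq table of 32851 promoters. Short heat shock elements (GAANNTTC or TTCNNGAA) were searched in the 250 bases before each start, on both strands. They were found 104 bases before the start of Hspa1a and of Hspa1b, and 33 and 54 bases before the 2 listed starts of Hsph1. Of all promoters 12.8% held one. In the GENCODE annotation Hsph1 begins at 149636376 on the minus strand, so that its element lies within the gene there. A longer element of 3 alternating GAA and TTC units, each separated by NN, contains the short one and was in none of the 6 genes and in 0.466% of promoters. The CCAAT box (CCAAT or ATTGG, 33.8% of promoters) was before the first listed start of all 6, with 4 copies in Stip1. It was absent before the second listed starts of Dnajb1 and Cirbp, where the bases searched lie within the annotated genes. A match gives letters only, and no match says nothing of a factor's binding. Shown are the stretch of Hsph1 with its heat shock element, the promoter of Stip1 with the 4 CCAAT boxes, and part of that of Cirbp, which held no heat shock element. The Cirbp stretch is the first 189 of the 250 bases before its first listed start, and stops where an annotated exon of the gene begins. In the GENCODE annotation Cirbp begins at 80165985 on the plus strand, so that this stretch also lies within the gene there. Capitals mark the letters that match.
Hsph1 (chr5:149636356-149636385, minus strand): ccATTGGgtagaatctTTCtcGAAggctcg
Stip1 (chr19:7040027-7040276, minus strand): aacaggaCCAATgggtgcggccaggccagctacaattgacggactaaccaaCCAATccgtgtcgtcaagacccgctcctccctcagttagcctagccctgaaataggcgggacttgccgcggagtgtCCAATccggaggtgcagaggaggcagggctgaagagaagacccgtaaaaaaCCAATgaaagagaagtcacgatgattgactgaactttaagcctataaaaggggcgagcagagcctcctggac
Cirbp (chr10:80167589-80167777, plus strand): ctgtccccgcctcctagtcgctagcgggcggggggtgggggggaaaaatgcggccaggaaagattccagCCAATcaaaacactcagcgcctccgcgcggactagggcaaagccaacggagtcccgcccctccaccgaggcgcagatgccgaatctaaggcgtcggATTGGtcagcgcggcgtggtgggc

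In WT livers 4 of the 9 tested genes rose from ZT8 to ZT20 (Hsp90aa1, Hsp90ab1, Stip1 and Hsph1) and 1 fell (Rbm3). Of all 14488 genes tested, 27.7% passed the threshold in this comparison (adjusted p below 0.05), 13.8% as higher and 13.9% as lower. In Rev-erbα-/- livers 3 genes rose (Hsp90aa1, Hsp90ab1 and Stip1) and 2 fell (Hspa1b and Dnajb1), against 17.5% of all genes, 8.79% higher and 8.67% lower. The median log2 fold change of the 9 genes was -0.04 in WT and 0.27 in Rev-erbα-/- livers, and over all genes it was -0.0002 and 0.0063. Values of the 2 times did not overlap for 7 of the 9 genes in WT, 4 higher and 3 lower, and for 6 in Rev-erbα-/- livers, 3 higher and 3 lower. Over all genes 21.5% were higher and 20.9% lower without overlap in WT, and 17.5% and 17.6% in the knockouts.

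**Figure D2:**
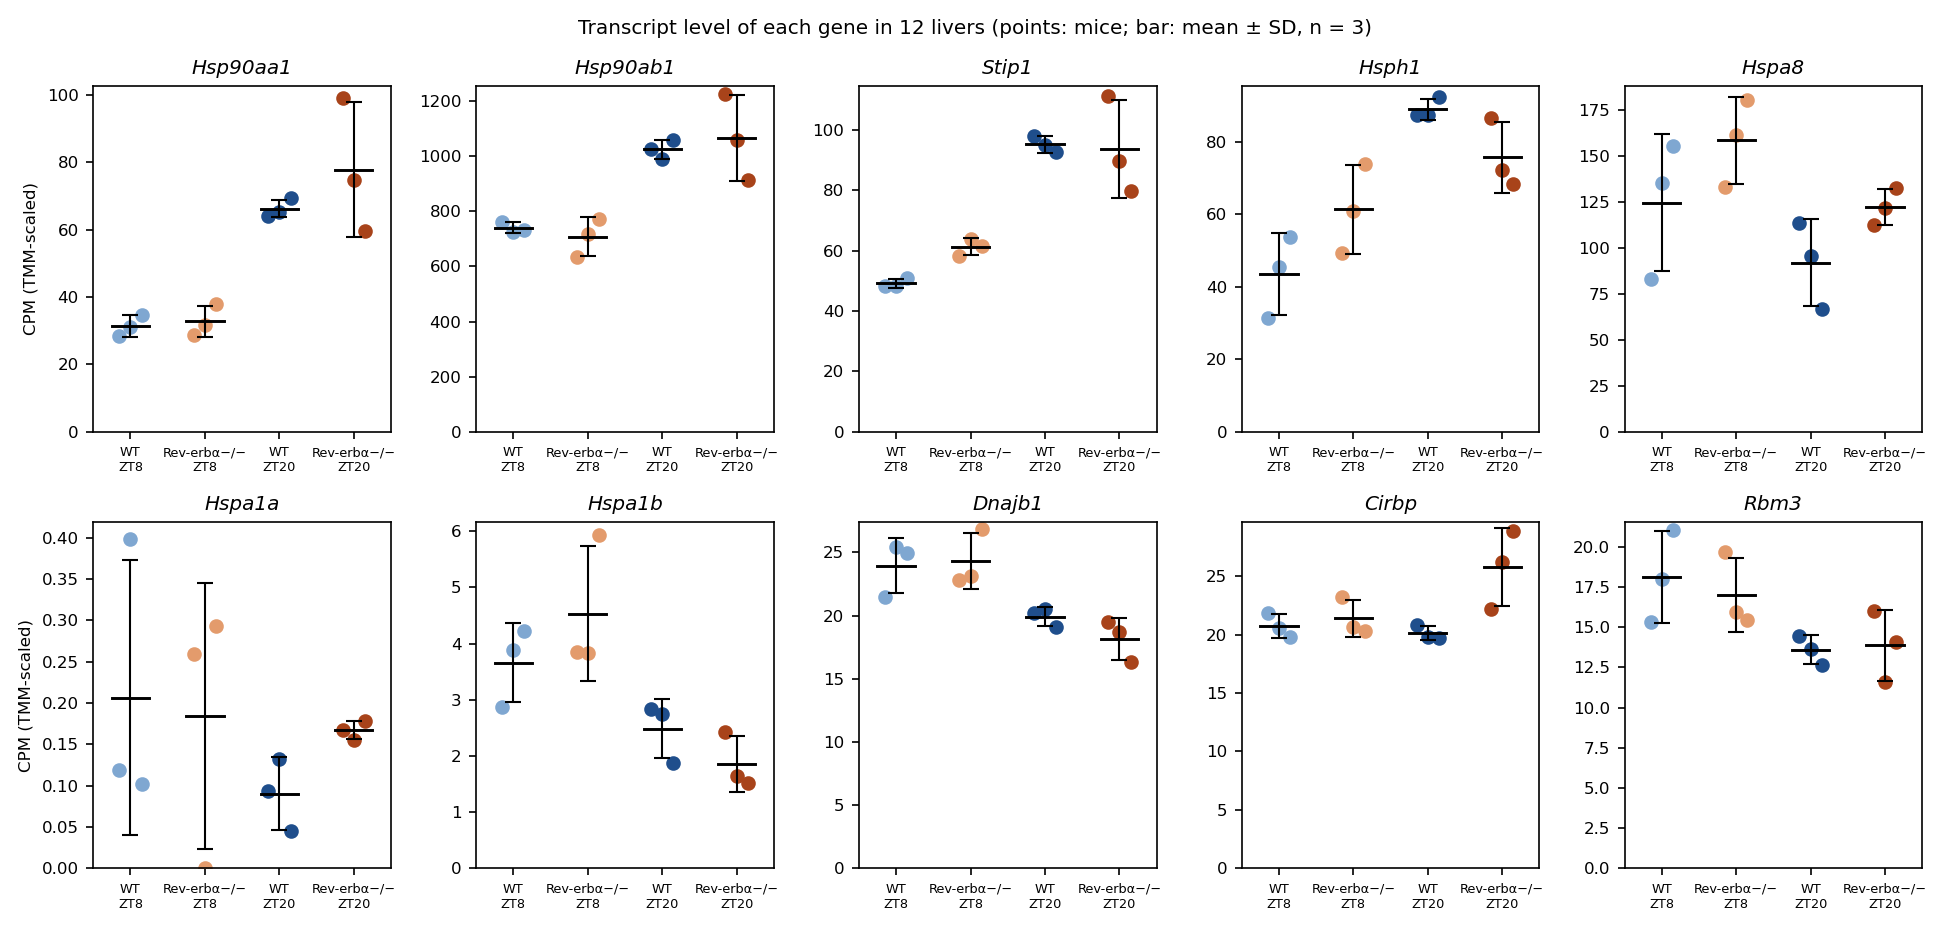
Level of each of the 10 genes in CPM (TMM-scaled, linear axis from 0) in the 12 livers by genotype and time. Points are mice, the long bar is the mean and the error bar the SD of 3. Hsp90aa1, Hsp90ab1 and Stip1 lie higher at ZT20 in both genotypes without overlap, and Dnajb1 and Hspa1b lie lower.

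Hsp90aa1, the inducible cytosolic HSP90, was at 28.5, 31.1 and 34.7 CPM in the 3 WT livers at ZT8 and at 64.2, 65.4 and 69.3 CPM at ZT20. The Rev-erbα-/- livers had 28.7, 31.7 and 38.0 CPM at ZT8 and 99.1, 74.8 and 59.5 CPM at ZT20. All values at ZT20 lay above all values at ZT8, and the knockout livers at ZT20 were the most spread (77.8 ± 19.95 CPM, against 66.3 ± 2.67 CPM in WT, SD, n = 3). The log2 fold change from ZT8 to ZT20 was 1.08 ± 0.163 (SE) in WT, with an adjusted p of 5.04e-04 in edgeR's quasi-likelihood test. The Rev-erbα-/- livers gave 1.25 ± 0.163, with an adjusted p of 4.06e-04.

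Hsp90ab1, the constitutive cytosolic HSP90 on chromosome 17 (45567775 to 45573271), was the most abundant of the 10 genes per length in every liver. It was at 762, 726 and 732 CPM in WT livers at ZT8 and at 1026, 988 and 1059 CPM at ZT20, and in Rev-erbα-/- livers at 632, 719 and 771 CPM and at 1225, 1059 and 912 CPM. Again the times did not overlap in either genotype. The log2 fold change was 0.47 ± 0.111 in WT (adjusted p = 0.00529) and 0.59 ± 0.111 in Rev-erbα-/- livers (adjusted p = 0.00205). The rise of Hsp90ab1 was smaller than that of Hsp90aa1, so that the ratio of their counts fell from 26.8, 23.3 and 21.1 in WT livers at ZT8 to 16.0, 15.1 and 15.3 at ZT20. The ratio in Rev-erbα-/- livers was 22.0, 22.7 and 20.3 at ZT8 and 12.4, 14.2 and 15.3 at ZT20. Every ratio at ZT8 was above every ratio at ZT20 in both genotypes, and the exact permutation test of 3 against 3 cannot give a p below 0.1.

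Both pseudogenes of Hsp90aa1 were also higher at ZT20 than at ZT8. Gm12346 was counted at 16.9, 18.5 and 18.3 CPM in WT livers at ZT8 and at 44.4, 45.2 and 45.1 CPM at ZT20. The Rev-erbα-/- livers were at 16.7, 21.1 and 22.1 CPM and at 64.6, 45.7 and 36.5 CPM. The highest and lowest of the knockout livers at ZT20 were therefore the same animals as for Hsp90aa1. The log2 fold change with time was 1.33 ± 0.174 in WT (adjusted p = 1.68e-04) and 1.29 ± 0.173 in Rev-erbα-/- livers (adjusted p = 4.67e-04). Gm5844 was between 3.54 and 12.0 CPM and was also higher at ZT20, by 1.29 in WT (adjusted p = 1.15e-04) and 0.97 in Rev-erbα-/- livers (adjusted p = 0.00211) on the log2 scale. The count of Gm12346 was between 0.526 and 0.691 times that of Hsp90aa1 in each library, and that of Gm5844 between 0.110 and 0.152 times. Per 1000 windows found in no other annotated gene, mean levels were 34.6 CPM for Hsp90aa1, 46.2 CPM for Gm12346 and 5.80 CPM for Gm5844. These windows do not account for reads across exon junctions, so that levels of Hsp90aa1 and its copies are not like measures. Which locus the reads on Hsp90aa1 and its copies came from was not tested. With the counts of the copies added to Hsp90aa1, the time effect was 1.18 in WT (adjusted p = 3.05e-04) and 1.24 in Rev-erbα-/- livers (adjusted p = 4.86e-04). Hsp90ab1 had the more divergent copies Gm6368 and Gm13498, at means of 20.2 and 3.88 CPM.

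**Figure D3:**
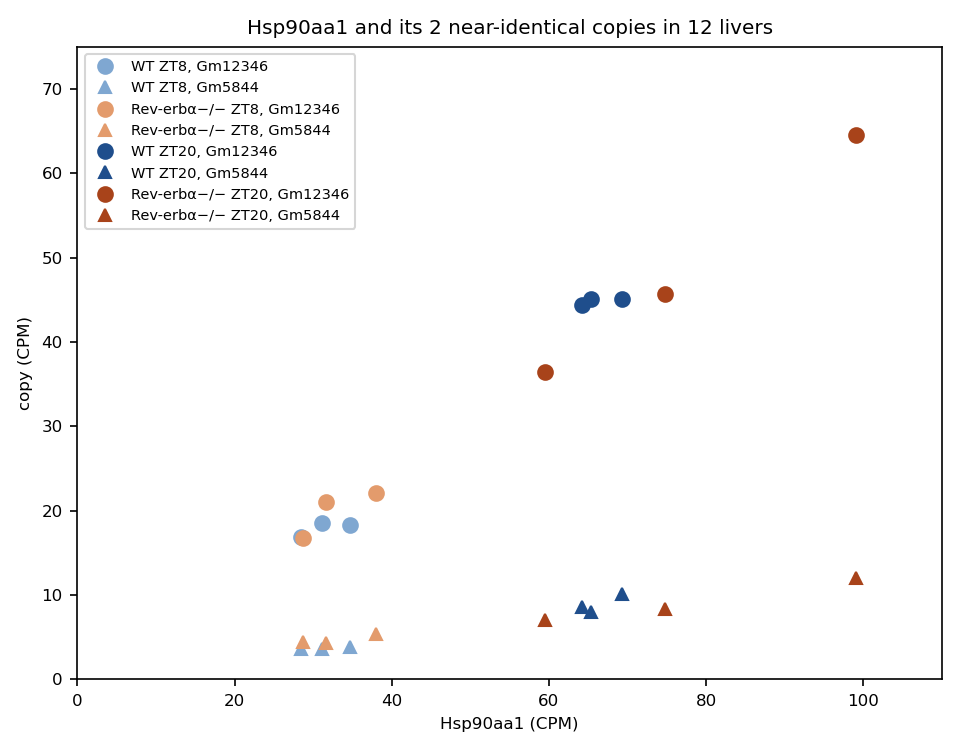
Level of the pseudogenes Gm12346 (circles) and Gm5844 (triangles) against that of Hsp90aa1 in the same liver, in CPM on linear axes, coloured by genotype and time. Gm12346 ran from 16.7 to 64.6 CPM and Gm5844 from 3.54 to 12.0 CPM, and the liver with the highest Hsp90aa1 had the highest value of both.

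Stip1 (chr19:7020702-7039967, minus strand) was at 48.4, 48.3 and 50.9 CPM in WT livers at ZT8 and at 98.1, 95.05 and 92.6 CPM at ZT20. The Rev-erbα-/- livers were at 58.4, 64.0 and 61.4 CPM and at 111, 89.7 and 79.8 CPM. The knockout livers at ZT8 thus lay between the WT livers of the 2 times, above those of ZT8 and below those of ZT20. The time effect was 0.95 ± 0.0965 in WT (adjusted p = 4.23e-06) and 0.61 ± 0.0958 in Rev-erbα-/- livers (adjusted p = 5.35e-04) on the log2 scale.

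Hsph1 (chr5:149614287-149636376, minus strand), an HSP110 that recharges HSP70, was at 31.4, 45.4 and 53.9 CPM in WT livers at ZT8 and at 87.4, 87.4 and 92.4 CPM at ZT20. The ZT20 values were close together and all above those of ZT8, a log2 increase of 1.03 ± 0.193 (adjusted p = 0.00272). In Rev-erbα-/- livers it was at 49.4, 60.9 and 73.9 CPM at ZT8 and at 86.7, 72.2 and 68.3 CPM at ZT20. These values overlapped, and the log2 fold change of 0.30 ± 0.190 did not pass the threshold (adjusted p = 0.322).

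Hspa8 (chr9:40800984-40810087, plus strand), the constitutive cytosolic HSP70, was the only abundant chaperone of the set with lower means at ZT20, and no time effect passed the threshold. It was at 83.1, 135 and 155 CPM in WT livers at ZT8 and at 114, 95.5 and 66.7 CPM at ZT20, with overlap between the times. The Rev-erbα-/- livers were at 133, 161 and 181 CPM and at 113, 121 and 132 CPM, without overlap. The log2 fold change was -0.44 ± 0.251 in WT (adjusted p = 0.240) and -0.37 ± 0.249 in Rev-erbα-/- livers (adjusted p = 0.355). Without replicate 1 of the WT livers at ZT8, the lowest of its group, the WT effect was -0.67 and passed (adjusted p = 0.0317). In the other 19 of 20 alternative settings or sample sets it did not pass, with an adjusted p of up to 0.576. The gene holds the small RNA genes Snord14c, Snord14d and Snord14e on the same strand. Of its 14 annotated copies, 6 were listed in the count tables and summed to a mean of 0.0199 CPM, and reads that matched several copies were not counted.

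The stress-inducible HSP70 genes were low in all livers. Hspa1a had 3, 8 and 2 counts in WT and 5, 0 and 6 in Rev-erbα-/- livers at ZT8, and 2, 3 and 1 and 4, 4 and 4 at ZT20. The 0 in replicate 2 of the knockout livers at ZT8 allows a level of up to 0.167 CPM, and differences of Hspa1a were not detectable at this depth. Hspa1b had between 34 and 121 counts. It was at 2.87, 3.89 and 4.22 CPM in WT livers at ZT8 and at 2.84, 2.74 and 1.88 CPM at ZT20, and in Rev-erbα-/- livers at 3.84, 3.83 and 5.93 CPM and at 2.43, 1.64 and 1.51 CPM. Values at ZT20 lay below those at ZT8 in both genotypes. The log2 fold change was -1.29 ± 0.249 in Rev-erbα-/- livers (adjusted p = 0.00252) and -0.55 ± 0.245 in WT (adjusted p = 0.112). Without replicate 1 of the WT livers at ZT8 the latter was -0.72 and passed (adjusted p = 0.0467). In the other 19 of 20 alternatives it did not pass, with an adjusted p of up to 0.301. The 2 time effects were not shown to differ, with a difference of 0.74 (95% interval -0.01 to 1.48, adjusted p = 0.260).

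Dnajb1 (chr8:83608193-83612653, plus strand), the J-domain partner of HSP70 induced by heat, followed Hspa1b in direction with smaller changes. It was at 21.4, 25.5 and 24.96 CPM in WT livers at ZT8 and at 20.2, 20.5 and 19.1 CPM at ZT20, and in Rev-erbα-/- livers at 22.9, 23.2 and 26.8 CPM and at 19.5, 18.7 and 16.3 CPM. The times did not overlap in either genotype. The log2 fold change was -0.42 ± 0.0960 in Rev-erbα-/- livers (adjusted p = 0.00749). In WT it was -0.27 ± 0.0956 and missed the threshold by little (adjusted p = 0.0504). It passed without replicate 1 of the WT livers at ZT8 (-0.35, adjusted p = 0.0158), and without replicate 1 (adjusted p = 0.0455) or 3 (adjusted p = 0.0388) of the knockout livers at ZT8 or replicate 3 of those at ZT20 (adjusted p = 0.0431). It also passed with DESeq2 size factors (adjusted p = 0.0473), without TMM (0.0109), at a minimum of 10 counts in every library (0.0476) and with the compared samples alone (0.0484). In 12 of the 20 alternatives it did not pass, with an adjusted p of up to 0.183.

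Rbm3 (chrX:8138975-8145880, minus strand) was at 15.3, 18.0 and 21.0 CPM in WT livers at ZT8 and at 14.5, 13.7 and 12.7 CPM at ZT20, without overlap, and its log2 fold change of -0.41 ± 0.138 passed the threshold (adjusted p = 0.0373). That call was lost when any of 5 WT livers was left out: replicates 2 and 3 at ZT8 (adjusted p = 0.0872 and 0.171) and replicates 1, 2 and 3 at ZT20 (adjusted p = 0.0587, 0.0951 and 0.102). In Rev-erbα-/- livers Rbm3 was at 19.7, 15.9 and 15.4 CPM and at 16.0, 11.6 and 14.1 CPM, with overlap and a time effect of -0.29 ± 0.138 (adjusted p = 0.165).

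Cirbp (chr10:80165985-80172786, plus strand) was nearly level across the WT livers, at 21.8, 20.5 and 19.8 CPM at ZT8 and at 20.8, 19.8 and 19.7 CPM at ZT20. Its WT time effect was -0.04 on the log2 scale, with a 95% interval from -0.25 to 0.16 (adjusted p = 0.783). In Rev-erbα-/- livers it was at 23.2, 20.7 and 20.3 CPM at ZT8 and at 22.2, 26.2 and 28.9 CPM at ZT20. The times overlapped through replicate 1 of each group, and the log2 fold change was 0.27 ± 0.0949 (adjusted p = 0.0645). It passed without replicate 1 of the knockout livers at ZT8 (0.33, adjusted p = 0.0448) or at ZT20 (0.36, adjusted p = 0.0152). In the other 18 of 20 alternatives it did not pass, with an adjusted p of up to 0.258.

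**Figure D4:**
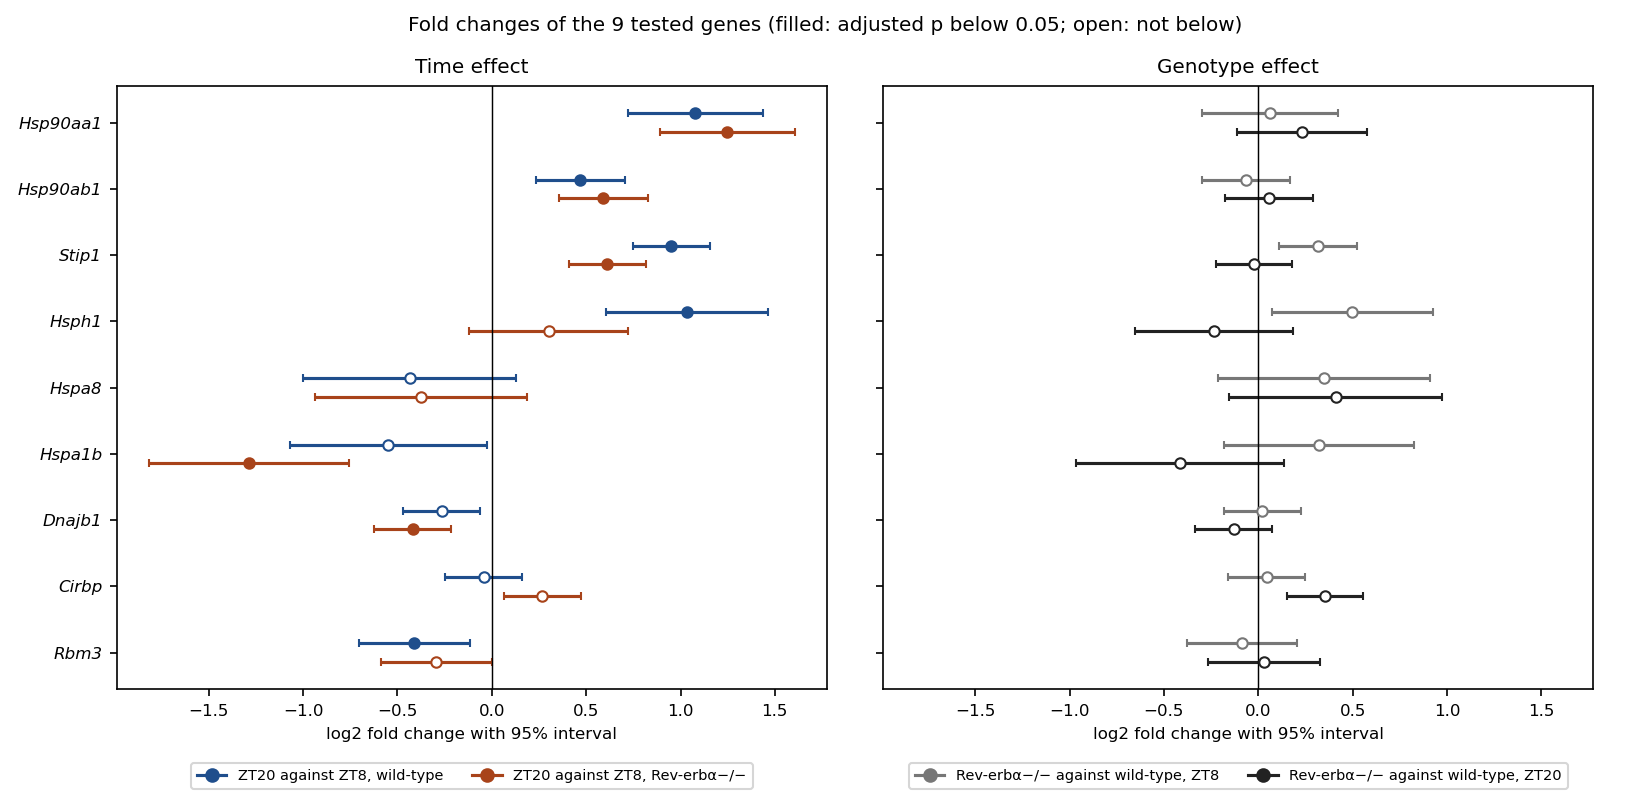
Log2 fold changes of the 9 tested genes with 95% intervals, ZT20 against ZT8 within each genotype (left) and Rev-erbα-/- against wild-type at each time (right). Filled points passed an adjusted p of 0.05, which 5 genes did with time in WT, 5 in Rev-erbα-/- livers and none between the genotypes.

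Between the genotypes, none of the 9 genes passed the threshold in edgeR's test at ZT8, at ZT20 or for the interaction. Over all genes 8.45% passed at ZT8 (4.4% higher and 4.04% lower in the knockouts), 3.63% at ZT20 (2.09% and 1.54%) and 5.88% for the interaction (3.05% and 2.83%). At an unadjusted p under 0.05 the counts were 2, 1 and 3 genes, and DESeq2 called 2, 1 and 1. Shares over all genes under these criteria are not given here, so that these counts stand without a background. The median log2 fold change of the 9 genes was 0.06 at ZT8 and 0.03 at ZT20, against 0.0018 and -0.0007 over all genes.

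Rev-erbα-/- against WT, Hsp90aa1 differed by 0.06 at ZT8 (95% interval -0.30 to 0.42) and by 0.23 at ZT20 (-0.12 to 0.58) on the log2 scale. For Hsp90ab1 the values were -0.06 (-0.30 to 0.17) and 0.06 (-0.18 to 0.29). The adjusted p-values of these 4 differences ran from 0.572 to 0.887, which does not show that the genotypes were alike. Differences in Hsp90ab1 beyond about 0.30 on the log2 scale lay outside both intervals.

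Stip1 and Hsph1 had higher means in the knockout livers at ZT8. For Stip1 these livers, at 58.4 to 64.0 CPM, did not overlap with the WT livers at 48.3 to 50.9 CPM, as was the case for 13.2% of all genes in this direction. The difference of 0.32 ± 0.0967 had an adjusted p of 0.0562. It passed in DESeq2 (adjusted p = 0.0475), and also in edgeR without replicate 1 (adjusted p = 0.0115) or replicate 3 (adjusted p = 0.0258) of the knockout livers at ZT20. It also passed without the filter on counts and with the compared samples alone. In 15 of 20 alternatives it did not pass, with an adjusted p of up to 0.180. At ZT20 the difference of Stip1 was -0.02 (95% interval -0.23 to 0.18). The difference of these effects was 0.34 ± 0.135 (adjusted p = 0.171), and 0.48 without replicate 1 of the knockout livers at ZT20 (adjusted p = 0.0130). In the other 18 of 19 alternatives it did not pass, with an adjusted p of up to 0.330. Hsph1 differed by 0.50 ± 0.193 at ZT8 (adjusted p = 0.149) and by -0.23 ± 0.189 at ZT20 (adjusted p = 0.659), where the knockout livers lay below the WT livers without overlap, as did 11.3% of all genes. The difference of its effects was 0.73 ± 0.270 (adjusted p = 0.161). In DESeq2 the ZT8 effect and the interaction of Hsph1 passed, with adjusted p-values of 0.0476 and 0.0473. In the other alternatives, 19 of 20 and 18 of 19, they did not pass, with adjusted p-values of up to 0.335 and 0.316.

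Cirbp was the member nearest to a genotype effect at ZT20. The knockout livers, at 22.2 to 28.9 CPM, lay above the WT livers at 19.7 to 20.8 CPM, as did 11.2% of all genes without overlap in this direction. The difference was 0.36 ± 0.0946 with an adjusted p of 0.0511. It passed in DESeq2 (adjusted p = 0.0468) and without replicate 1 of the WT livers at ZT8 (adjusted p = 0.0440), of the knockout livers at ZT8 (adjusted p = 0.0429) or of those at ZT20 (0.45, adjusted p = 0.0119). It also passed without the filter on counts. In 15 of 20 alternatives it did not pass, with an adjusted p of up to 0.191. At ZT8 the difference was 0.04 (95% interval -0.16 to 0.25), and the interaction was -0.31 ± 0.135 (adjusted p = 0.211). For Rbm3 the genotype differences were -0.09 (-0.38 to 0.21) at ZT8 and 0.03 (-0.27 to 0.33) at ZT20. Hspa8 had higher means in the knockouts at both times, by 0.35 and 0.41, with intervals that held 0 (-0.21 to 0.91 and -0.15 to 0.97).

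Within each group the same liver was often the highest or the lowest. Replicate 1 of the knockout livers at ZT20 was the highest of its group in 7 of the 9 tested genes, and the lowest in Hspa8 and Cirbp. Replicate 3 of that group was the lowest in 6. Among WT livers at ZT8, replicate 1 was the lowest in 6 genes and replicate 3 the highest in 6, and the same held for replicates 1 and 3 of the knockout livers at ZT8. Replicate 3 of the WT livers at ZT20 was the lowest in 6. The 9 genes therefore cannot be taken as independent of each other. Such ranks were not counted over all genes, so that the pattern is not shown to be particular to this set. Replicate 1 of the WT livers at ZT8 also had the fewest alignments to more than 1 place of its group, at 1.76 per counted read. Without it, 8 of the 9 genes passed the WT time comparison in place of 5. How many of all genes passed in that fit is not given here, so that this count is not read as a trait of the 9 genes.

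Levels of different genes were compared per length. Per kilobase of annotated exon, and as means of the 12 livers, Hsp90ab1 was at 295 CPM, Stip1 at 35.5, Hspa8 at 28.9, Hsp90aa1 at 13.2, Hsph1 at 9.28, Cirbp at 8.45, Dnajb1 at 6.73, Rbm3 at 3.33, Hspa1b at 1.12 and Hspa1a at 0.0546 CPM. Ranges over the livers overlapped between each neighbouring pair from Stip1 to Dnajb1. Hsp90ab1, Hspa1b and Hspa1a stood apart from their neighbours in every liver, and Rbm3 at up to 4.48 CPM stayed below Dnajb1 at 5.09 CPM or more. Per 1000 windows found in no other annotated gene, Hspa8 came second at 170 CPM, after Hsp90ab1 at 364 CPM. Stip1 at 38.5 CPM and Hsp90aa1 at 34.6 CPM followed. The order of Hspa8 and Stip1 also differed between the times: per kilobase Hspa8 had the higher mean at ZT8 (28.9 against 23.3 CPM in WT and 36.8 against 29.1 CPM in Rev-erbα-/- livers) and the lower at ZT20 (21.4 against 45.2 CPM and 28.4 against 44.4 CPM).

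Of 20 further HSP90 and GR cochaperone genes tested, 7 rose in WT and 5 in Rev-erbα-/- livers from ZT8 to ZT20, and none fell, where 13.8% and 8.79% of all genes rose. Between the genotypes 1 was higher in the knockouts at ZT8 and 1 lower at ZT20, where 4.4% and 1.54% of all genes were. The median log2 fold change was 0.25 in WT and 0.07 in the knockouts. This list and those that follow were chosen with earlier results of these data known, so that their counts are a description only. Fkbp4, the immunophilin FKBP52 of GR complexes, went from 128 ± 7.38 to 260 ± 20.4 CPM in WT and from 122 ± 7.46 to 246 ± 29.2 CPM in Rev-erbα-/- livers (SD, n = 3). Its log2 fold changes were 1.02 (adjusted p = 1.51e-06) and 1.01 (adjusted p = 6.29e-06). Ahsa1, which stimulates the ATPase of HSP90, rose by 0.49 and 0.38 (adjusted p = 4.44e-04 and 0.00496). Fkbp5, a cochaperone gene known to be induced by glucocorticoids, had log2 fold changes of -1.15 (adjusted p = 0.0852) and -0.90 (adjusted p = 0.203).

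The cochaperone gene that passed at ZT8 was Chordc1, which encodes an HSP90-binding protein. It was at 29.6, 25.5 and 25.8 CPM in WT and at 41.5, 37.7 and 39.6 CPM in Rev-erbα-/- livers at ZT8, and at 50.1, 45.3 and 41.9 CPM and at 41.2, 36.2 and 35.2 CPM at ZT20. The knockout livers lay above the WT livers at ZT8 and below them at ZT20, without overlap. Over all genes 13.2% did so at ZT8 and 11.3% at ZT20. The ZT20 difference of Chordc1 did not pass the threshold. The genotype effect was 0.55 ± 0.0910 at ZT8 (adjusted p = 0.00149), and it differed from that at ZT20 by 0.84 ± 0.127 (adjusted p = 9.89e-04). Ppp5c, the HSP90-bound phosphatase PP5, was lower in the knockouts at ZT20 by 0.38 on the log2 scale (log2 fold change -0.38, adjusted p = 0.0320), a call lost without replicate 2 of either genotype at ZT8, replicate 1 or 2 of the WT livers at ZT20 or any knockout liver at ZT20 (adjusted p = 0.0515 to 0.151).

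For the lists that follow, the shares over all genes with time were 13.8% higher and 13.9% lower in WT and 8.79% higher and 8.67% lower in Rev-erbα-/- livers. Of 16 other HSP70, HSP110 and nucleotide exchange genes, 3 rose and 1 fell with time in WT and 3 rose in Rev-erbα-/- livers. Hspa4l, an HSP110 relative of Hsph1, rose by 0.99 in WT (adjusted p = 1.15e-06) and 0.97 in Rev-erbα-/- livers (adjusted p = 5.85e-06) on the log2 scale. Hspa13, a microsomal HSP70, rose by 0.74 (adjusted p = 8.18e-05) and 0.41 (adjusted p = 0.0116), the latter not past the threshold without replicate 2 of the knockout livers at ZT8 (adjusted p = 0.0650). None of the 16 passed between the genotypes or for the interaction. Of 16 tested J-domain genes, 4 rose and 1 fell in WT and 1 rose and 4 fell in Rev-erbα-/- livers, beside 8.79% and 8.67% of all genes. Dnajb2 rose in both, by 0.94 (adjusted p = 6.44e-07) and 0.65 (adjusted p = 5.67e-05), whereas Dnajb1 was lower at ZT20. Dnaja2 was higher in the knockouts at ZT8 by 0.30 (adjusted p = 0.0132). That call was lost in 2 of 20 alternatives, among them without replicate 2 of the WT livers at ZT8 (adjusted p = 0.0684). Dnajc13 was lower in the same comparison (-0.23, adjusted p = 0.0463), a call lost in 14 of 20 alternatives. It was lost when any liver other than replicate 1 of the WT livers at ZT8 was left out (adjusted p = 0.0516 to 0.178).

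**Figure D5:**
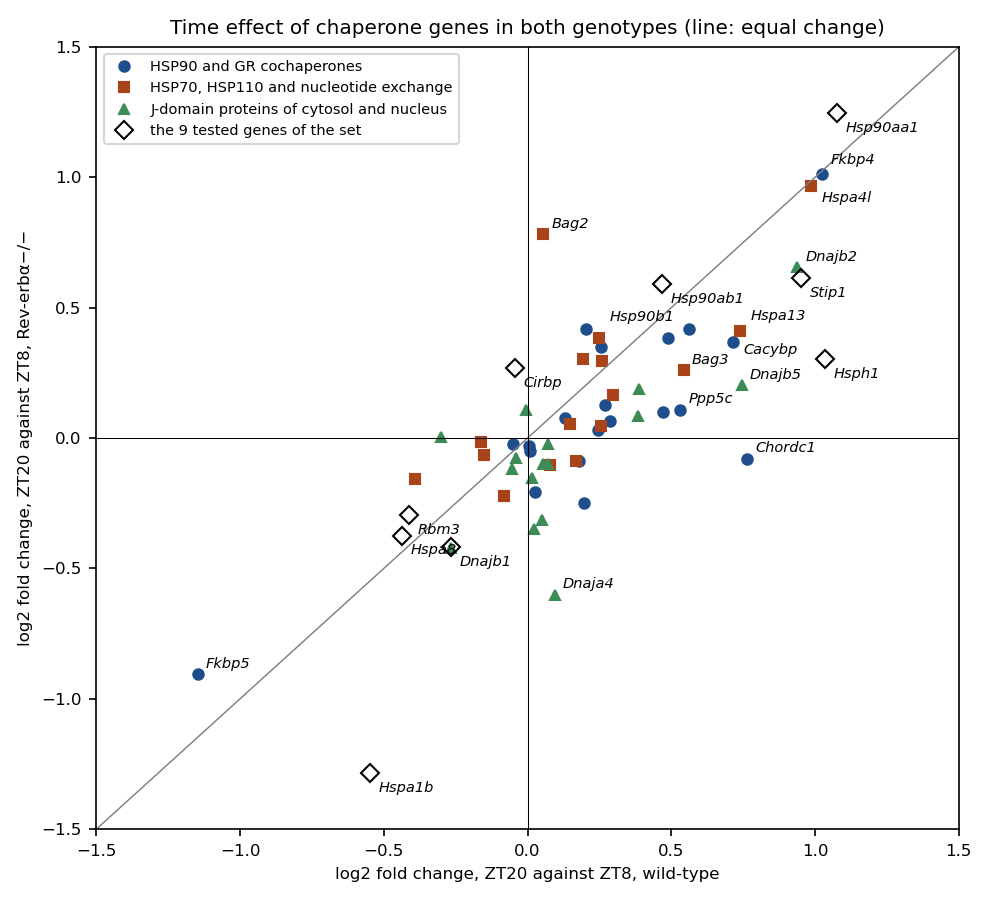
Log2 fold change from ZT8 to ZT20 in Rev-erbα-/- livers (y axis) against that in wild-type livers (x axis) for HSP90 cochaperones (circles), HSP70 and HSP110 genes (squares), J-domain genes (triangles) and the 9 tested genes of the set (open diamonds). The line marks equal change. Hsp90aa1, Fkbp4 and Hspa4l lie near 1 on both axes, and Chordc1 and Hsph1 lie below the line.

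Of 7 tested small heat shock and mitochondrial chaperonin genes, 1 rose and 1 fell in each genotype with time, in WT near the shares over all genes of 13.8% and 13.9%. Hspb1, the small heat shock protein HSP27, was at 1.91 ± 0.731 CPM in WT and 0.828 ± 0.142 CPM in Rev-erbα-/- livers at ZT8 (SD, n = 3), a log2 difference of -1.21 (adjusted p = 0.0411). That call was lost in 9 of 20 alternatives. Among them were fits without any of 5 livers at ZT8 (replicates 1 and 2 of WT and 1, 2 and 3 of the knockouts, adjusted p = 0.0813 to 0.149). Fits without replicate 2 of either genotype at ZT20 also lost it (adjusted p = 0.0602 and 0.0598). Of 14 TRiC chaperonin and prefoldin genes, 2 rose and 1 fell in WT and 3 rose and 1 fell in Rev-erbα-/- livers, in WT again near 13.8% and 13.9%. The TRiC subunit gene Cct6a was higher in the knockouts at ZT20, by 0.43 (adjusted p = 0.00504). Of 7 tested heat shock factors and regulators, 1 fell in WT, which was Hsf4 (-0.58, adjusted p = 0.00364), and 1 rose in Rev-erbα-/- livers. Hsf4 was also lower in the knockouts at ZT8 (-0.49, adjusted p = 0.0317), a call lost in 5 of 20 alternatives. Among them were fits without replicate 2 or 3 of the WT livers or replicate 1 or 2 of the knockout livers at ZT8 (adjusted p = 0.0966 to 0.126).

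Of 19 RNA-binding relatives of CIRBP and RBM3, 5 rose in WT and 2 rose and 2 fell in Rev-erbα-/- livers with time, and none passed between the genotypes. Over all genes 13.8% rose in WT, and 8.79% rose and 8.67% fell in the knockouts, which the knockout counts were near. The splicing regulator gene Tra2a rose by 0.83 in WT (adjusted p = 1.29e-04) and 0.43 in Rev-erbα-/- livers (adjusted p = 0.0237), where the call was lost without replicate 2 or 3 at ZT8 or replicate 1 or 2 at ZT20 (adjusted p = 0.0540 to 0.0977). Of 14 CDC-like kinase and SR splicing factor genes, whose splicing is known to respond to temperature, 3 rose and 2 fell in WT and 3 fell in Rev-erbα-/- livers, and 2 were higher in the knockouts at ZT8 (4.4% of all genes). Those 2, Srsf6 and Srsf10, did not pass without replicate 1 of the knockout livers at ZT8 (0.20, adjusted p = 0.122, and 0.24, adjusted p = 0.160), nor without replicate 2 (adjusted p = 0.108 and 0.168) or 3 (adjusted p = 0.0711 and 0.132) of the WT livers at ZT8. Srsf6 was also lost without replicate 2 of the knockout livers at ZT8 or of the WT livers at ZT20 (adjusted p = 0.0867 and 0.0514), and Srsf10 without any liver at ZT20 (adjusted p = 0.0557 to 0.0675). Of all 20 alternatives, Srsf6 was lost in 7 and Srsf10 in 11. Of 11 tested immediate early genes, known to respond rapidly to stress, none rose with time, and 2 fell in WT and 4 in Rev-erbα-/- livers, where 13.9% and 8.67% of all genes fell. Junb was lower in the knockouts at ZT8 (-0.83, adjusted p = 0.00828), a call lost without replicate 2 of the knockout livers at ZT8 (adjusted p = 0.0514), and Atf3 was higher (1.405, adjusted p = 0.00654). The part of these genes in the heat shock results was not tested.

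The genes whose levels were most like those of a member over the 12 livers are given as a description, as Pearson's r of log2 CPM among 14479 genes. The livers share their groups, so that any gene with a like time effect scores high. For Hsp90aa1 they were its pseudogene Gm12346 (0.991), Gtf2ird1 (0.987), Sntb1 (0.979), Pdia4 (0.979), a chaperone of the endoplasmic reticulum, and Parp1 (0.974). For Hspa1b they were Mup16 (0.935), Mettl13 (0.933), Zscan29 (0.931), Ttc1 (0.930) and Stard5 (0.930), of which Mup16 belongs to a family of near-identical genes and is uncertain. For Cirbp they included Nat8 (0.934), Cask (0.912), Pclo (0.909) and 5430435G22Rik (0.907).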

How the data were processed

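Livers were flash frozen, poly(A) libraries of the 12 samples were sequenced on an Illumina HiSeq instrument, and reads were mapped by the authors with TopHat to mm10. The authors deposited raw read counts for each gene symbol, made from uniquely mapped reads with HTSeq-count (union mode, minimum quality 10, strand ignored). The annotation version is not given in the sources used here. Groups and replicate numbers were taken from the sample labels. The labels do not state separate animals in so many words, and p-values measure the spread between these samples.

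The counts were filtered with filterByExpr, libraries were scaled with TMM, and edgeR 4.0.16 (R 4.3.3) fitted a robust quasi-likelihood model with 4 group means to the 12 libraries. Benjamini-Hochberg adjustment ran over 14488 genes in each comparison, with a threshold of 0.05. Intervals are 95% intervals. The fit was tested on simulated data. Exact permutation tests of 3 against 3 are two-sided and cannot go below 0.1. At 17641809 to 26060192 counts per library, limits from counts cover counting error only.

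Shared sequence was searched with 75-base windows and BLAST 2.17.0 in the GENCODE annotation of GRCm38, and promoters were taken from RefSeq on GRCm38.p6. The replicate numbers did not pair the samples.

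The members and the further lists were chosen with earlier results of these data known. All 10 members are named, and from each further list up to 4 genes with the largest change among those that passed. Fkbp5 is named because it stands apart in a plot. Like genes are the 5 with the highest r for Hsp90aa1, Hspa1b and Cirbp, of which 1 is not reported here. Alternatives were DESeq2 1.42.0, its size factors in edgeR, total counts without TMM, no filter on counts, a minimum of 10 counts per library, fits to the compared samples alone, a block for the replicate number, a threshold of 0.01, and leaving out each library.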

Additional observations from a re-analysis of the deposited data

Results flagged for a closer look

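For 6 genes of the pathway lists the genotype effect at ZT8 differed from that at ZT20 in edgeR's interaction test, given here as the effect of Rev-erbα-/- against WT at ZT8 minus that at ZT20 on the log2 scale. None of the 10 members was among them. Over all genes 5.88% passed this test, and the 6 genes are not read as a trait of the lists. Chordc1 had a difference of 0.841 (adjusted p = 9.89e-04), which passed in all 19 alternatives run. Atf3 had 1.71 (adjusted p = 0.0225) and passed in 16. Cdc37l1 had 0.446 (adjusted p = 0.0376) and passed in 9, and Dnaja2 had 0.365 (adjusted p = 0.0380) and passed in 7. Cct6a had -0.469 (adjusted p = 0.0201) and passed in 17, and Hdac6 had -0.461 (adjusted p = 0.0248) and passed in 14.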

How the results depend on the processing

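The number of members that passed between the genotypes was 0 in edgeR and changed with the settings. At ZT8 it was 2 in DESeq2, 1 without the filter, 1 with only the samples compared, and 0 to 1 when a library was left out. At ZT20 it was 1 in DESeq2, 1 without the filter, and 0 to 1 when a library was left out. For the interaction it was 1 in DESeq2 and 0 to 1 when a library was left out. The count of 5 in the WT time comparison ran from 4 to 8 when a library was left out, with 8 without replicate 1 at ZT8. Shares of all genes that passed under these settings are not given here, and the cause of these changes was not tested.

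Of 891 values for the members under the alternatives, 840 kept direction and side of the threshold, 5 lost and 26 gained a call, and 20 changed sign. Without TMM, the ZT8 genotype effect of Dnajb1 was -0.00886. When a library was left out, genotype effects at ZT8 crossed 0 for Hsp90aa1 (-0.0559 to 0.146), Hsp90ab1 (-0.130 to 0.00618), Dnajb1 (-0.0570 to 0.0684), Cirbp (-0.0224 to 0.0832) and Rbm3 (-0.209 to 0.0339). Those at ZT20 did so for Hsp90ab1 (-0.0557 to 0.157), Stip1 (-0.168 to 0.0777) and Rbm3 (-0.0853 to 0.147), and the interaction for Hsp90aa1 (-0.327 to 0.0442), Hspa8 (-0.294 to 0.130) and Rbm3 (-0.243 to 0.00514). None of these had passed the threshold. Without TMM the share of higher genes among those that passed in WT with time was 36.2% in place of 49.9%.

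With the replicate number as a block, 0 members passed at ZT8, at ZT20 and for the interaction and 5 in each time comparison, and no member's call changed. Same-numbered libraries of different groups had a mean correlation of deviations of -0.0144 (-0.0832 to 0.0738), and 2 of 12 libraries were most like their own number. With the counts of annotated copies added to each member, an alternative chosen after seeing the data, the counts of calls were the same. Depth limited Hspa1a, with at most 8 counts in a library.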
